A study of Homo sapiens with 9 samples.

Results

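Processed pseudogenes are DNA copies of spliced messages that were written back into the genome, so they lack the introns of the gene they came from and usually lie far from it. Many are copies of abundant messages, above all those of ribosomal proteins, and most are silent or weakly transcribed. Because the copy and its parent message are so alike, a short read can fit both, and how a read is placed decides which of them it is counted for. The poly(A) binding proteins coat the tail of a polyadenylated RNA: PABPN is mostly nuclear and binds the tail as it is made, whereas PABPC is mostly cytoplasmic and binds the tail of exported messages.

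The genes described are the 86 processed pseudogenes whose baseMean, the mean normalised read count over the 6 libraries of the PABPC table, was above 50. They were chosen from the 51268 genes of that table, of which 8270 were processed pseudogenes and 14844 had a baseMean above 50. The choice used the Input and PABPC RIP libraries and not the PABPN RIP libraries, so the PABPC RIP values of these genes are given as a description. Of the 86, 85 were also listed in the PABPN table, and 29 of those had a baseMean above 50 there. The members nearest the limit were RANBP1P1 at 50.02, NHP2P1 at 50.6 and RPL23P8 at 51.22, with PTMAP2 at 51.35 and RPS11P5 at 51.55. RANP1 at 48.86, RPS28P7 at 48.84, RPL24P4 at 48.34, ENSG00000228205 at 47.92 and ENSG00000232176 at 47.29 fell just short of it.

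The libraries came from HEK293T cells, a cell line of human embryonic kidney origin that carries the SV40 large T antigen, of wildtype genotype by the labels and all crosslinked with 0.1% formaldehyde for 10 minutes. Each of 3 replicate lysates was kept in part as Input and otherwise divided between an antibody to endogenous PABPN (PABPN RIP) and an antibody to endogenous PABPC (PABPC RIP), which gave 3 libraries per group and 9 in all. Total RNA depleted of ribosomal RNA was sequenced, so spliced, unspliced and fragmented RNA were read alike. No library of a control precipitation was analysed here. The whole reads of each library were recovered from the digits of baseMean for 6428 genes, all 86 pseudogenes among them. On the 6416 of these genes that were also listed in the PABPN table, they amounted to between 2383117 and 3530053 reads per library. Libraries are numbered in the order in which they were recovered, and those numbers are not the replicate numbers of the labels. Normalised reads are the recovered reads divided by the size factor of the library, which ran from 0.7834 to 1.3228.

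The closest coding transcript was found by sequence for 83 of the 86 copies, and the parent named by the gene symbol was the same gene for all 58 copies whose symbol named one. Cytosolic ribosomal proteins were the parents of 46 copies, and elongation factors, initiation factors or NACA of 8. The copies were 142 to 5376 bases long with a median of 646.5 and lay on 21 chromosomes. Across the 82 copies with a PABPN value and a matched transcript, the identity to that transcript had a median of 97.45% and ranged from 69.6% to 99.7%. Identity was that of the best aligned stretch, which did not always span the copy. It covered 18.5% of LRRC37A9P, 48.7% of FNBP1P1 and 75.2% of ENSG00000270558.

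Stretches of 75 bases, the length of 1 read, are shown for copies that were called lower or higher in the PABPN RIP comparison, beside the coding sequence of the message. All are on the hg38 build, 5′ to 3′ on the strand of the gene, and capitals mark the bases of a copy that differ from the message. The stretch of each message was taken where the first copy listed under it differed most. For EEF1A1, which carries aminoacyl-tRNA to the ribosome, the stretch covers coding bases 220 to 294. EEF1A1P5 lies at chr9:133019705-133019779 on the plus strand, EEF1A1P13 at chr5:14653033-14653107 on the minus strand and EEF1A1P11 at chr1:96447149-96447223 on the plus strand. EEF1A1P5 and EEF1A1P11 have the same 75 bases here, so a read of exactly this stretch could not be assigned between them.
EEF1A1: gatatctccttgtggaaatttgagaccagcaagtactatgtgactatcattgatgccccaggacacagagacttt
EEF1A1P5: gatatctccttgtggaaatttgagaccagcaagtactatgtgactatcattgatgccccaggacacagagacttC
EEF1A1P13: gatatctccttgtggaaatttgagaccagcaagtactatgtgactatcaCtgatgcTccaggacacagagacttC
EEF1A1P11: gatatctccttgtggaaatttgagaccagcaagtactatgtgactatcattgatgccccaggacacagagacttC

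EEF1A1P5 differed from EEF1A1 at 4 of 1389 aligned bases, EEF1A1P13 at 26 and EEF1A1P11 at 38. The last stretches are from RPL23P8, at chr7:20827571-20827645 on the plus strand, and NUS1P2, at chr13:22915854-22915928 on the plus strand. RPL23 encodes a protein of the large ribosomal subunit, and NUS1 a subunit of an enzyme that makes the lipid carrier of protein glycosylation. They cover coding bases 246 to 320 of RPL23 and 206 to 280 of NUS1.
RPL23: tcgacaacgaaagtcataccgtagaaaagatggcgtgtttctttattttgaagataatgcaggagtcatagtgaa
RPL23P8: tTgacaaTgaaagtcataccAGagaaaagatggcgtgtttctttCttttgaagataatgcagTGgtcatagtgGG
NUS1: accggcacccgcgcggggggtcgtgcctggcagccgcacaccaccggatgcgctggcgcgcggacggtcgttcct
NUS1P2: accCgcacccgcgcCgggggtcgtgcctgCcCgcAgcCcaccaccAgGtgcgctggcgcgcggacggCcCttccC

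Windows of 75 bases were slid along every copy and looked up in the whole genome to see how much of a copy a read could identify. In the median copy 88.05% of the windows occurred nowhere else, and 59.7% still did so when 1 mismatch was allowed. Every window was unique in 21 copies, whereas under 50% of the windows were unique in 9. In the genome the least distinct were EEF1A1P5 with 20% unique windows, HMGN2P5 with 25.6% and RPL7P9 with 29.3%. HMGN2P5, a copy of the message of a nucleosome-binding protein, and RPL7P9 had no unique window left once 1 mismatch was allowed. All windows stayed unique in 6 copies, namely ZNF204P, FNBP1P1, ENSG00000214651, ENSG00000232906, ENSG00000249721 and ENSG00000270558. The genome alone holds no spliced junctions, so the windows were also looked up in coding transcripts on the sense strand. The median share of unique windows was then 78.35%, with every window unique in 14 copies and under 50% in 15. HMGN2P5 had 0% unique windows by that measure, PHC1P1 13.3%, RPL7P9 17.2%, PPIAP22 17.7% and EEF1A1P5 17.8%. The share fell most for RPL3P4, from 71.3% to 21.5%, and for MORF4L1P1, from 89.7% to 45.6%. How reads with several equally good places were treated in these libraries was not given in the sources used here, and its part in the values of the copies was not tested.

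The values by library showed 3 tiers for most copies, with PABPC RIP highest, Input between and PABPN RIP lowest. RPS2P5, a copy of the message of RPS2, a protein of the small ribosomal subunit, was by far the most abundant, with 5859, 6177 and 6012 normalised reads in the PABPC RIP libraries, 1141, 1026 and 1096 in Input and 509.5, 480.5 and 403.1 in the PABPN RIP libraries. The 3 groups did not overlap. The next ribosomal copy, ENSG00000224114, a copy of the RPS14 message, had 895.4, 809.5 and 707.1 in PABPC RIP, 172.2, 188.3 and 221.9 in Input and 49.9, 32.31 and 49.03 in PABPN RIP. RPL13P12, a copy of the message of a large-subunit protein, had 755.4, 552.9 and 583.3 in PABPC RIP against 97.58, 79.24 and 97.02 in Input and 40.82, 61.3 and 48.2 in PABPN RIP. Both followed the order of RPS2P5, again with no overlap between groups.

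**Figure D1:**
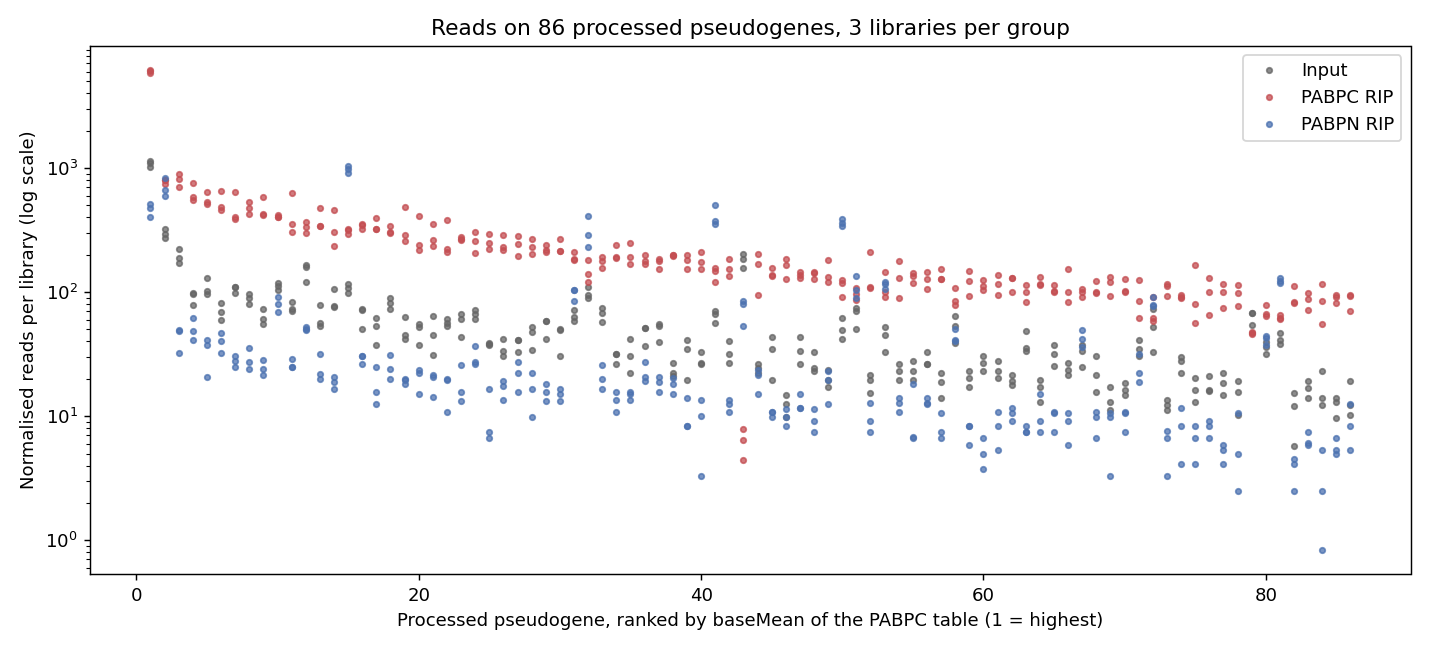
Normalised reads per library (log axis) of the 86 processed pseudogenes, ranked by baseMean in the PABPC table, with 1 point per library for Input (grey), PABPC RIP (red) and PABPN RIP (blue). RPS2P5 stands alone at the left with 5859 to 6177 normalised reads in PABPC RIP, and for most copies the red points lie above the grey and the grey above the blue.

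In PABPC RIP, all 3 libraries lay above all 3 Input libraries for 83 of the 86 copies, where 45.0% of the 6416 genes with recovered reads did so. The difference on the log2 scale had a median of 2.36 over the copies and 0.11 over those genes. Since these libraries chose the members, a copy that is scarce in Input could enter only through its PABPC RIP reads, and nothing is read from these counts. Against the PABPN RIP libraries, the PABPC RIP libraries were all higher for 75 of 85 copies, where 36.6% of all genes were so, with a median log2 difference of 3.65. RPS2P5 was 5.53-fold above Input in PABPC RIP and GAPDHP1, a copy of the message of the glycolytic enzyme GAPDH, 4.177-fold. Both exceptions below Input in all PABPC RIP libraries, ENSG00000214651 and ENSG00000232906, had less than 85% identity to any coding transcript.

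ENSG00000214651 was the copy furthest from the rest in PABPC RIP. It is 81.7% identical to the message of ATP6V1B2, a subunit of the proton pump of acidic compartments. It had 4.459, 7.947 and 6.382 normalised reads in PABPC RIP against 157.4, 184.6 and 203.6 in Input and 80.14, 84.5 and 53.19 in PABPN RIP. The groups did not overlap, and the log2 difference between PABPC RIP and Input was -4.78. The other exception, ENSG00000232906, closest to the zinc finger gene ZNF680 at 72.7% identity, had 47.27, 46.55 and 45.95 in PABPC RIP and 54.12, 68.05 and 68.2 in Input, and was not listed in the PABPN table.

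PABPN RIP against Input was the comparison whose RIP libraries had no part in the choice of members, although the Input libraries did. With limma and Benjamini-Hochberg (BH) adjustment over 6416 genes, a call needed an adjusted p of at most 0.01 and a log2 change beyond 0.5. Of the 85 copies, 53 were lower in PABPN RIP than in Input, 8 were higher and 24 were not called, 20 of these with a value below 0. Among all genes tested, 9.07% were called lower and 20.8% higher. The log2 difference had a median of -1.24 over the copies and 0.08 over all genes tested, and the middle copies ran from -1.53 at the lower quartile to -0.77 at the upper. In 65 copies all 3 PABPN RIP libraries lay below all 3 Input libraries, and in 10 they all lay above. The shares of all genes tested that did so were not computed, so nothing is read from these counts. The test covers genes of low to middling abundance, since reads could not be recovered for most genes with a high baseMean.

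**Figure D2:**
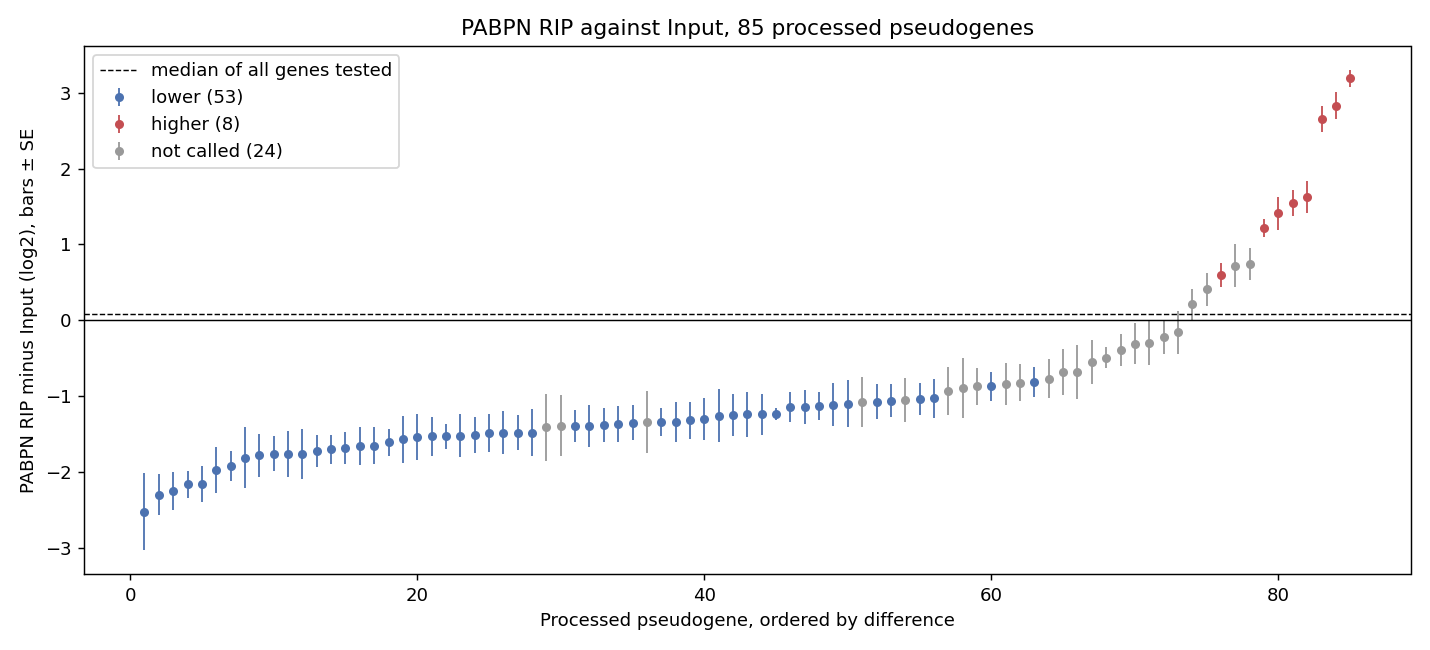
PABPN RIP minus Input on the log2 scale for the 85 copies with a value, in order of the difference, with bars of ± 1 SE from limma and colours for copies called lower (53), higher (8) or not called (24). The dashed line is the median of all genes tested, 0.08, and 73 of the 85 points lie below 0.

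Among the 46 copies of ribosomal protein messages, 31 were lower in PABPN RIP, 2 were higher and 13 were not called, with a median of -1.25. RPS2P5 fell by 1.23 on the log2 scale (SE 0.08, limma BH-adjusted p = 1.07e-07), which is 2.351-fold. RPS2P5 differed from RPS2 at 11 of 879 aligned bases, RPS2P7 at 28 of 885 and RPS2P32 at 75 of 853. The calls of the 3 copies differed too: RPS2P7 had 10.58, 10.77 and 7.48 normalised reads in PABPN RIP against 14.76, 18.64 and 16.33 in Input and was not called (-0.77, limma BH-adjusted p = 0.0283). RPS2P32, the most diverged of the 3, had 103.6, 85.32 and 104.7 in PABPN RIP against 72.16, 62.46 and 58.59 in Input. It was called higher (0.60, SE 0.16, limma BH-adjusted p = 0.00784), the weakest of the 8 calls in that direction. In PABPC RIP it had 212.3, 182.8 and 185.1.

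The lowest of the ribosomal copies, and of all 85, was RPL23P8 at -2.52 (SE 0.51, limma BH-adjusted p = 0.00133). It rested on few reads, with 5.292, 2.485 and 0.8311 normalised reads in PABPN RIP and 12.3, 13.98 and 23.05 in Input, the groups not overlapping. ENSG00000224114, the RPS14 copy, fell by 2.16 (SE 0.18, limma BH-adjusted p = 1.48e-06) on much higher counts. RPLP0P6, a copy of the stalk protein message, fell by 1.76 and RPS23P8 by 1.61. Some calls hung on 1 library: RPL13P12, lower at -0.87, was no longer called without Input library 3 (-0.83). RPS11P5, not called at -1.39, was called without Input library 1 (-1.78).

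All 8 copies of elongation factor, initiation factor and NACA messages were lower in PABPN RIP, with differences between -2.16 and -1.38. Of these, 5 are copies of EEF1A1. EEF1A1P5 had 27.97, 24.85 and 30.75 normalised reads in PABPN RIP against 110.7, 98.82 and 110.5 in Input (-1.92, SE 0.20, limma BH-adjusted p = 6.93e-06). EEF1A1P11 had 18.9, 20.71 and 16.62 against 77.08, 75.51 and 106.6 (-2.16, SE 0.24, limma BH-adjusted p = 1.33e-05). The groups did not overlap in either. EEF1A1P13 fell by 1.51, EEF1A1P9 by 1.78 and EEF1A1P12 by 1.48. Since these copies share long stretches with each other and with EEF1A1, they are not independent measurements.

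The EEF1A1 copies also differed among the PABPC RIP libraries. EEF1A1P13 had 635 normalised reads in PABPC RIP library 1 and 305.4 and 356.1 in the other 2, and EEF1A1P5 had 643 against 388.3 and 404.6. Library 1 over the mean of the other 2 ran from 1.247 to 1.92 over the 5 copies, with a median of 1.167 over the 86 members and 1.031 over all genes tested. It passed 1.5 in 13 members, or 15.12%, against 9.663% of all genes. Without that library EEF1A1P5 was 3.709-fold and EEF1A1P13 4.357-fold above Input in PABPC RIP, in place of 4.357-fold and 5.419-fold. The count of copies lower in PABPN RIP stayed at 53 without it and the count higher became 9.

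The remaining small groups went the same way. The 3 copies grouped by parent name as chromatin proteins were lower, HMGN2P5 by 1.70, PTMAP2 by 1.30 and SETP14 by 1.04, and PTMAP2 lost its call without Input library 3 (-1.19). That list of names was not complete. PHC1P1, a copy of a Polycomb protein message, was counted with the other parents and was not called. Both copies of glycolytic enzyme messages were lower, GAPDHP1 with 3.78, 4.97 and 6.649 normalised reads in PABPN RIP against 30.34, 23.31 and 26.9 in Input (-2.30, SE 0.27, limma BH-adjusted p = 2.28e-05) and TPI1P1 at -1.26. PPIAP22, a copy of the cyclophilin A message, fell by 1.65. ANXA2P2, a copy of the message of the calcium-dependent membrane-binding protein annexin A2, had 8.316, 7.455 and 7.48 against 33.62, 35.43 and 48.99, with no overlap between the groups (-2.25, SE 0.25, limma BH-adjusted p = 1.17e-05). Of the 21 copies with other parents, 8 were lower, 3 higher and 10 not called, with a median of -0.55. RCN1P2, a copy of the message of a calcium-binding protein of the endoplasmic reticulum and among the 10 most abundant members, was not called at -0.49, and was called without PABPN RIP library 1 (-0.59).

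The 3 highest PABPN RIP minus Input differences belonged to copies annotated at 1 place in the genome. ENSG00000243302 at chr7:128651185-128652334, ENSG00000230715 at chr7:128652841-128653243 and ENSG00000243679 at chr7:128653969-128654722 follow each other on the plus strand, 507 and 726 bases apart. In GENCODE release 44 all 3 lie in exons of the long noncoding RNA ENSG00000242588 on the same strand, and no coding transcript matched them. In that order, 55.0%, 61.4% and 74.0% of their 75-base windows were unique in the genome. With 1 mismatch allowed these shares were 18.8%, 22.5% and 42.1%, so reads from elsewhere could be among those counted. ENSG00000243302 had 986.6, 1035 and 917.5 normalised reads in PABPN RIP, 315.7, 323.6 and 292.3 in PABPC RIP and 107.4, 98.82 and 115.3 in Input. The groups stood apart, with PABPN RIP 9.11-fold above Input (3.19, SE 0.11, limma BH-adjusted p = 9.88e-10). ENSG00000230715 rose by 2.83 and ENSG00000243679 by 2.65 on the log2 scale. Since all 3 overlap the same noncoding RNA, they are not independent measurements.

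The other copies that were higher in PABPN RIP were mostly diverged from their closest message. FNBP1P1 was 73.0% identical to FNBP1, whose protein shapes membranes in endocytosis, over the 48.7% of its length that aligned. It had 232.1, 289.9 and 409.7 normalised reads in PABPN RIP against 110.7, 94.16 and 90.29 in Input (1.62, SE 0.21, limma BH-adjusted p = 5.03e-05). ENSG00000249721, 72% identical to RPL23A, had 130.8, 117.6 and 123 against 41, 38.22 and 47.07 (1.55, SE 0.17, limma BH-adjusted p = 1.06e-05). Every PABPN RIP library was above every Input library in both. ZNF204P, the second most abundant member, had 600.3, 661.9 and 826.9 in PABPN RIP, 808, 799.3 and 749.3 in PABPC RIP and 271.4, 295.5 and 322.7 in Input (1.22, limma BH-adjusted p = 5.51e-06). Release 44 no longer lists it as processed but as a transcribed unprocessed pseudogene. NUS1P2 was the exception, 93.9% identical to NUS1, with 121, 116.8 and 106.4 in PABPN RIP against 45.1, 32.63 and 52.83 in Input (1.41, SE 0.22, limma BH-adjusted p = 0.0002), and it lies in an intron of the noncoding gene ENSG00000262198 on the same strand.

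Set against identity, with a limit of 90% chosen after the values were seen and therefore without a test, the copies fell into unequal groups. Of the 75 copies with at least 90% identity, 52 were lower in PABPN RIP, 1 was higher and 22 were not called, with a median of -1.32. Of the 10 with lower identity or no match, 1 was lower (ENSG00000214651), 7 were higher and 2 were not called, with a median of 1.38. The copies that overlap ENSG00000242588 are among the 7 and are not independent measurements. Over the 82 copies with an identity, Pearson's r with the PABPN RIP difference was -0.64 and Spearman's rho -0.30, across genes that share libraries and in part sequence. The share of unique windows was only weakly related to it (Pearson's r 0.06, Spearman's rho 0.20). Of 20 copies in which every window was unique, 9 were lower and 4 higher, and of 9 in which under 50% were, 6 were lower and 0 higher. With coding transcripts searched too, 12 of the 15 copies under 50% were lower and 0 higher, against 53 and 8 of all 85. The calls at the other end of that measure were not counted.

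**Figure D3:**
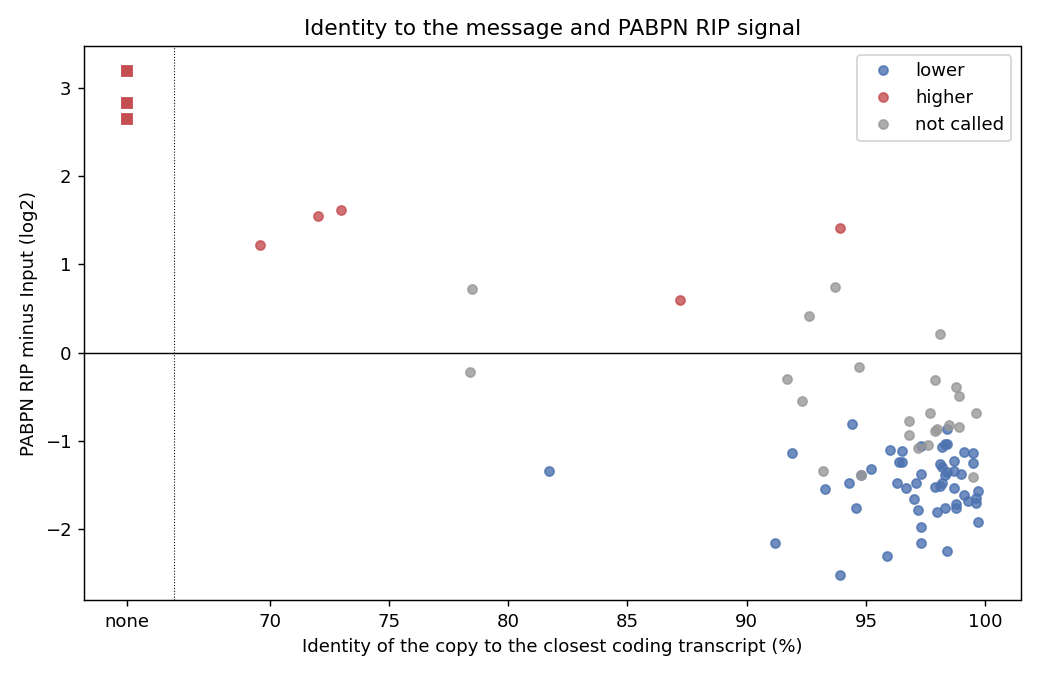
PABPN RIP minus Input on the log2 scale against the identity (%) of each copy to its closest coding transcript, with 1 point per copy coloured by its call and the 3 copies without a match as squares at the left. The 75 copies at or above 90% identity have a median of -1.32, and the points at the left edge lie at 2.65 to 3.19.

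Some copies lay within other genes. A gene on the same strand overlapped 7 of the tested copies, and 5 of these were higher in PABPN RIP, against 8 of all 85, but 3 of the 5 are the stretches of ENSG00000242588. A gene on the opposite strand overlapped 36 copies, 22 of which were lower, against 53 of all 85, a similar share. RPS2P5 inside TAOK3 and ENSG00000224114 inside MAPKAPK2 were among them. The authors removed stretches shared by overlapping genes from their annotation, yet the length in the table equalled the full exonic length of release 44 for 85 of the 86 copies. The strand setting of the counting was not given in the sources used here, so which stretches of these copies were counted, and whether reads of the opposite gene were among them, could not be told.

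The parent messages were mostly too abundant for their reads to be recovered. They were 68 genes, 49 named by symbol and the rest only as the closest coding transcript. Their baseMean ran from 292.7 for GEMIN8 to 169600 for EEF1A1, and 57 of them exceeded 5000, above which no recovery was attempted. For these only the authors' baseMean of each table is available, with no replicate error. Both tables share the Input libraries, so after scaling the PABPN table by 0.855 to the same Input level, the ratio of the baseMeans lies nearer to 1 than the ratio of PABPC RIP to PABPN RIP. Bounds were computed with 0.860, the highest scale of any Input library. The PABPC table was higher for 62 of the 68 parents and lower for 6. EEF1A1 was at least 3.617-fold higher in PABPC RIP than in PABPN RIP and at least 2.617-fold higher than in Input, and RPS2 at least 3.819-fold and 2.819-fold. A bound above 1 over Input was reached by 54 parents. The share of all coding genes that reached it was not computed, so this count is a description only. No bound could be had for PABPN RIP against Input.

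The same ratio was above 1 for 87 of 87 cytosolic ribosomal protein genes in both tables, with a median of 1.86 on the log2 scale and a range from 0.83 to 2.43. Over all coding genes it was above 1 for 6768 of 12560, with a median of 0.07. Kinases and a binding protein that matched the ribosomal names by letters only were taken out of the list after they were seen. Copies and their closest messages are set side by side in the plot of table ratios. The copy's log2 ratio minus the message's had a median of 0.37 over 81 pairs, with 48 pairs within 0.5, 27 above and 6 below. The copies were chosen by baseMean in the PABPC table, the numerator of this ratio, and the messages were not. That choice favours high ratios in the copies, so these counts are a description only. RPS2P5 had a log2 ratio of 2.19 against 1.94 for RPS2, and EEF1A1P5 2.12 against 1.86 for EEF1A1. The 6 copies below their message by more than 0.5 were ENSG00000249721 (-2.25), RPS2P32 (-1.27), ENSG00000214651 (-1.25), ENSG00000257511 (-0.81), NUS1P2 (-0.68) and FNBP1P1 (-0.60). The ratio is drawn toward 0 by the shared Input reads, by an amount that differs between genes, and the difference between copy and message was not tested.

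**Figure D4:**
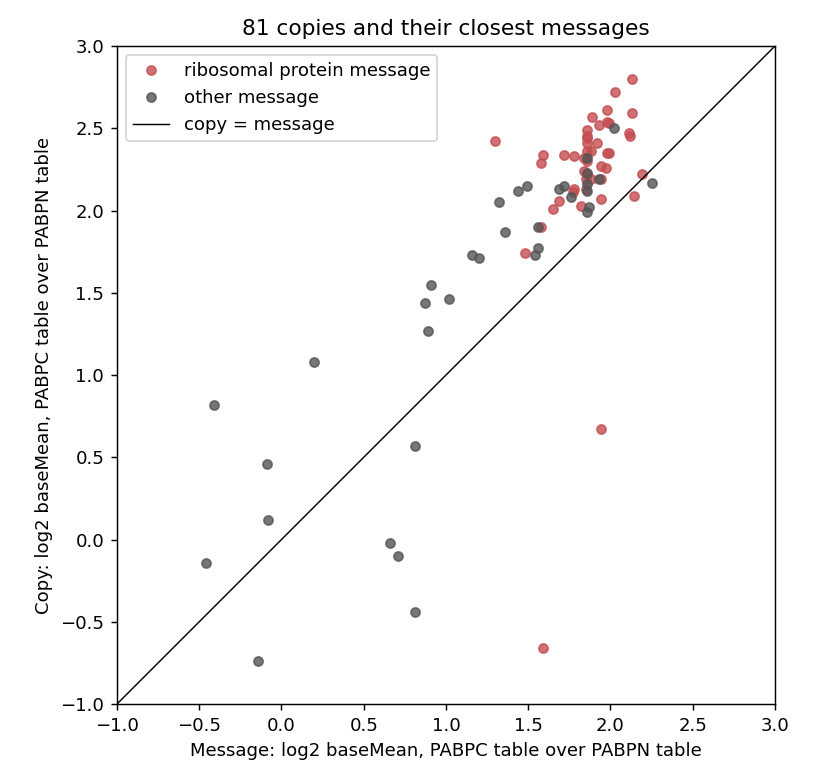
The log2 ratio of baseMean in the PABPC table to the scaled baseMean in the PABPN table, for 81 copies (vertical axis) and their closest messages (horizontal axis), with red points for copies of ribosomal protein messages and a line where both are equal. Most points sit above the line at message ratios of about 1.5 to 2.2, and 6 copies lie more than 0.5 below it, the lowest being ENSG00000249721 at -0.66 against 1.59 for RPL23A. The copies, unlike the messages, were chosen by baseMean in the PABPC table.

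Per kilobase of exon, the copies held little of the signal of their messages. The baseMean per kb of a copy had a median of 1.84% of that of its message over 82 pairs, and 24 pairs were under 1%. The lowest were RPL7AP31 at 0.1345% of RPL7A and the highest ZNF204P at 84.59% of its closest match ZNF420. The 5 EEF1A1 copies held between 0.3307% (EEF1A1P12) and 0.6801% (EEF1A1P5) of EEF1A1, and RPS2P5 held 17.63% of RPS2. RPS2P7 and RPS2P32 held 0.3114% and 0.6304%. Reads in introns of a message were counted while the length is exonic, so these shares are approximate.

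Reads were recovered for 5 of the genes listed as parents, 2 of them by symbol and the rest only by the closest sequence match. GEMIN8, part of the complex that assembles splicing snRNPs, had 377.2, 437.4 and 558.5 normalised reads in PABPN RIP against 375.5, 273.1 and 312.2 in Input and was not called (0.51, SE 0.16, limma BH-adjusted p = 0.0181). It was called higher without Input library 1 or without PABPN RIP library 1. Its copy GEMIN8P4 was not called, at 0.41. In PABPC RIP, GEMIN8 was at 274.7, 269.1 and 251.5, within or below the Input values and not called (-0.26). All of GEMIN8P4's PABPC RIP values, 106.1, 91.96 and 99.56, exceeded its Input values of 33.62, 37.29 and 24.97. With Input values below 50, GEMIN8P4 could pass the limit of 50 only through its PABPC RIP reads, so its PABPC RIP values are a description only. PHC1, a Polycomb repressive complex protein, was higher in PABPN RIP (0.70, limma BH-adjusted p = 1.67e-05) and in PABPC RIP (0.55, limma BH-adjusted p = 2.93e-05). Centred on the median of all genes, PHC1 was no longer called in PABPC RIP.

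PHC1P1, its copy, was not called in PABPN RIP at 0.21. Among the parents found by sequence, PET100, a factor for assembly of cytochrome c oxidase, was not called in PABPN RIP (-0.11) and was higher in PABPC RIP (1.93, SE 0.12, limma BH-adjusted p = 1.13e-08). Its copy ENSG00000283390 had 9.828, 6.627 and 10.8 normalised reads in PABPN RIP against 15.58, 21.44 and 30.74 in Input and was lower (-1.24, SE 0.30, limma BH-adjusted p = 0.00458). The other genes found by sequence, LRRC37B and ZNF420, were lower in a RIP but are not shown to be parents. LRRC37B aligned to 18.5% of LRRC37A9P. ZNF420 was 69.6% identical to ZNF204P, which release 44 lists as unprocessed. LRRC37B, closest to LRRC37A9P, had 440.6, 467.8 and 462.1 in PABPC RIP against 1089, 1020 and 1029 in Input (-1.19, SE 0.07, limma BH-adjusted p = 1.01e-08) and was not called in PABPN RIP (-0.03). ZNF420, closest to ZNF204P, was lower in PABPN RIP (-0.64, SE 0.09, limma BH-adjusted p = 7.47e-05) and in PABPC RIP (-0.85, SE 0.09, limma BH-adjusted p = 1.33e-06). The difference between copy and message was not tested for any of these pairs.

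The reads of RPS2P5 are less certain than those of the other 85 members. Its baseMean was 3552, and only 0.483% of genes between 3000 and 5000 were recovered. The expected number of accidental solutions was 0.00073 for RPS2P5 and at most 6.7e-06 for the others, against a limit of 0.001. With 600 genes to refine the read steps, the first setting, it was 0.0014 and RPS2P5 missed the limit. The number was then raised to 2000, which left the solved reads of all 86 members as they were. Without RPS2P5, 52 copies were lower in PABPN RIP and 8 higher.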

How the data were processed

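The samples were 3 Input, 3 PABPN RIP and 3 PABPC RIP libraries of HEK293T cells, grouped by their titles. The authors aligned reads to hg38 with STAR and counted introns and exons together with featureCounts 2.0.2 on an annotation derived from GENCODE release 34, with stretches shared by overlapping genes removed. The authors removed genes with upstream read-through for each RIP and compared each RIP with Input in DESeq2. The signal column deposited by the authors, baseMean, is the mean over 6 libraries of reads divided by size factors. The deposited columns of fold change, its error, test statistic and p-values hold the authors' own comparisons and were not used.

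baseMean is written with 15 significant digits, so whole reads per library were solved from it, jointly in both tables. A solution was accepted when fewer than 0.001 accidental ones were expected. Of 12580 genes attempted, 6428 were recovered, 6416 of them in both tables and above 50 in the PABPC table. Where single tables were solved alone, for genes with a baseMean below 50 in both tables, 991 of 991 genes gave the same 3 Input reads. Genes above 50 in the PABPC table, the members among them, were not checked in this way. Recovery covered 99.6% of genes with a baseMean of 50 to 100 but 29.5% of those from 1000 to 1500, where acceptance favours genes of small replicate spread. Recovered libraries carry no replicate number. Depth is known only as the 2383117 to 3530053 reads on the recovered genes listed in both tables, and reads without molecular identifiers are not independent molecules.

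PABPN RIP and Input were compared with limma 3.58.1 (lmFit and eBayes with trend, R 4.3.3) on log2(normalised reads + 0.5) over all 9 libraries, two-sided, with BH adjustment over 6416 genes. Because of the added 0.5 the fold changes of low genes are understated. The fits and the recovery were tested on simulated data. For the recovery these took the levels of recovered genes with a baseMean below 700, which leaves out RPS2P5, LRRC37B, PET100 and ZNF420. Identity was measured with blastn 2.17.0 against coding transcripts of GENCODE release 44, and windows of 75 bases against hg38. Members named are the 10 with the highest baseMean and those with the 5 highest and 5 lowest PABPN RIP minus Input differences. Also named are the 5 on each side of the limit of 50 and the 3 at each end of window uniqueness, with the parents of all these. Other genes were named after their values were seen. Some items that the rule names, and some sequences, are not reported here. The members and lists were chosen with earlier results of these data known. The alternatives tried were another pseudocount, filter, normalisation, centring, cut-off, variance model (voom), window length, mismatch and parent rule, and each library left out; the number of refining genes, leaving out RPS2P5 and the search of coding transcripts were added after the data were seen.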

Additional observations from a re-analysis of the deposited data

How the results depend on the processing

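The 53 copies lower and 8 higher in PABPN RIP became 51 and 8 with a pseudocount of 5, 58 and 7 with upper quartile normalisation, 53 and 8 when centred, 51 and 7 with a cut-off of 1 and 45 and 7 with voom. With a baseMean above 200, where 16 copies remain, they were 13 and 2. With 1 library left out they ran from 42 to 53 and from 7 to 9. With 600 refining genes they were 52 and 8. The median of PABPC RIP minus Input, 2.36, was 2.17 with a pseudocount of 5, 2.12 with upper quartile normalisation, 1.82 over 76 copies as the bound from baseMean alone and 2.22 to 2.47 with 1 library left out. That of PABPC RIP minus PABPN RIP, 3.65, was 3.21 with a pseudocount of 5, 3.84 above 200, 3.51 with upper quartile normalisation, 3.89 when centred and 3.57 to 3.70 with 1 library left out. Of the parents, 1 was called in PABPN RIP and 1 in PABPC RIP. With a cut-off of 1 these were 0 and 0, with parents by sequence 2 (PHC1 higher, ZNF420 lower) and 4 (PHC1 and PET100 higher, LRRC37B and ZNF420 lower), and with 1 library left out 1 to 2 and 1 to 1. Centring left 0 in PABPC RIP. The share of unique windows, 88.1%, was 64.7% for windows of 50 bases and 59.7% with 1 mismatch and 78.4% with coding transcripts searched too. The causes were not tested. Under the alternatives, named members lost a call 8 times and gained one 5 times, kept both call and direction 377 times, and never changed direction. RPL13P12 (-0.88) was among those that lost their call with voom.

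No paired analysis was possible because the recovered libraries carry no replicate number. baseMean alone gave no value for PABPN RIP against Input. Depth limits the copies near the limit of 50, whose PABPN RIP values rest on few reads, so that a copy that was not called is not shown to be unchanged.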

Other observations

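A further 8 processed pseudogenes had a baseMean above 50 in the PABPN table and below 50 in the PABPC table, and so were not among the members. They were HSPD1P4, with a PABPN table value of 92.34 and a PABPC table value of 43.64, TTC3P1 with 82.84 and 38.42, ENSG00000259015 with 73.01 and 39.87, and PRKXP1 with 66.24 and 31.76. The remaining 4 were SYPL1P2 with 60.77 and 35.55, ENSG00000250669 with 58.1 and 38.05, TATDN2P2 with 57.96 and 32.31, and TAS2R6P with 53.89 and 25.82. These are the authors' means over 6 libraries, with no replicate error.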
